A study of Homo sapiens with 8 samples.

Results

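Cholesterol synthesis and the genes that control it were followed in human lung fibroblasts as 28 listed genes: 18 enzymes of the route to cholesterol, 5 regulators of the SREBP system, the sterol carrier STARD4, the fatty acid enzymes FASN and SCD, and the LXR targets ABCA1 and MYLIP. The rule names the genes by symbol and uses no measured value, but the list was drawn up with earlier results of these data known. All 28 were found among the 54628 genes counted, and all 28 were among the 17155 genes with enough reads to be tested.

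The cells were IMR90, a human lung fibroblast line, immortalised with hTERT (the catalytic subunit of telomerase) and carrying the doxycycline-inducible vector pinducer20 for YAP5SA with an N-terminal Flag tag. YAP5SA is a serine-to-alanine form of the transcriptional coactivator YAP that escapes the inhibitory phosphorylation of the Hippo pathway. There were 4 groups of 2 libraries. Senescent cells with doxycycline had received bleomycin, a DNA-breaking drug, at 10 ug/ml for 24 h and were taken 9 days later, and were kept in 1 ug/ml doxycycline for 11 days. Senescent cells without doxycycline had the same bleomycin course. Proliferating cells with doxycycline had the same 11 days of doxycycline and no bleomycin. Proliferating cells without doxycycline had neither. All 4 groups carried the transgene and grew in 3% oxygen with 15% fetal bovine serum. No group combined doxycycline with a lack of the transgene, so the drug and YAP5SA cannot be told apart, and all libraries came from 1 cell line. Nothing in the labels says that the 2 libraries of a group came from separate cultures, so p-values measure only the spread between these libraries, which may be technical.

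The libraries held 33627708 to 39692162 counts over genes. Levels are given as CPM, counts over the library total on a scale of 1e+06, with the totals adjusted by TMM factors. A gene is said to have risen or fallen where edgeR's quasi-likelihood test passed an adjusted p of 0.05 (Benjamini-Hochberg over all 17155 genes). YAP1 reads, which can come from the transgene and from the cells' own gene, stood at 290.4 and 286 CPM in senescent cells with doxycycline, against 190.2 and 223 CPM without it (1.40-fold higher, adjusted p = 0.0014). In proliferating cells YAP1 stood at 190.1 and 238 CPM with doxycycline, against 198 and 195 CPM without it (1.09-fold, adjusted p = 0.431, not past the threshold). Of 15 fibroblast markers 14 averaged over 1 CPM in every group, and their sum was 26510 to 31970 CPM in senescent cells with doxycycline, 46180 to 48030 CPM in senescent cells without it, 24100 to 24810 CPM in proliferating cells with doxycycline and 34630 to 35000 CPM in proliferating cells without it. The summed markers of adipocytes reached 4.71 CPM at most, those of leukocytes 1.40 CPM and those of hepatocytes 0.644 CPM, with ADIG, TTR and CD2 at 0 in all 4 groups. Epithelial markers summed to 3.10 to 3.38 CPM in senescent cells with doxycycline and to at most 1.55 CPM in the other groups, with NKX2-1 at 0 in all 4. Endothelial markers summed to 98.9 to 109 CPM, 137 to 157 CPM, 49.6 to 54.1 CPM and 70.9 to 72.05 CPM in the 4 groups in the same order, and at most 3 of the 10 averaged over 1 CPM. Most of each sum was the single gene TEK, with means of 101, 144, 47.8 and 69.3 CPM in that order. The markers of proliferation (15 genes, summed) stood at 219 to 224 CPM in senescent cells with doxycycline, 330.2 to 389.6 CPM in senescent cells without it, 1924 to 2039 CPM in proliferating cells with doxycycline and 2731 to 2765 CPM in proliferating cells without it. Fewer cells of a kind and less RNA per cell cannot be told apart in bulk RNA.

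Cholesterol is built from acetyl-CoA through mevalonate and the isoprenoids to squalene, and then through lanosterol and a chain of sterol intermediates. SREBF2 and SREBF1 encode the SREBP transcription factors, which are held in the membrane of the endoplasmic reticulum with their escort SCAP by the INSIG proteins while sterols are plentiful, and are carried to the Golgi and cut free when sterols run low. Freed SREBP raises most enzymes of the pathway and INSIG1 itself, whereas oxysterols act on the LXR receptors, which raise the cholesterol exporter ABCA1 and MYLIP, a ubiquitin ligase that targets lipoprotein receptors. Fibroblasts make their own cholesterol and also take it up from serum.

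Promoter sequence from RefSeq (GRCh38.p14; 250 bases before to 50 after an annotated start) was given for 24 of the 28 genes, in 30 windows. SREBP acts on promoters together with NF-Y, which binds the CCAAT box, so exact matches were counted on both strands for a sterol regulatory element (TCACNCCAC), the NF-Y box (CCAAT), an E-box (CACGTG), an LXR element (a direct repeat of the nuclear receptor site with a gap of fixed length) and a TEAD motif (GGAATG, for the partners of YAP). Each motif was counted by itself, so that matches of different motifs may overlap. The NF-Y box was in 20 of the 30 windows (66.7%), against 34.6% of 35116 promoter windows of the same length, and in 18 of the 24 genes. The sterol element was in the SREBF2 window alone (3.33% of the 30), against 1.13% of all windows. The E-box was in 6 windows (20%, against 7.26%), the TEAD motif in 4 (13.3%, against 14%) and the LXR element in none (against 0.0199%). The 5 upstream stretches shown belong to genes described in the results: SREBF2, with the sterol element, DHCR7, MSMO1 and STARD4, which were higher with doxycycline in both states, and INSIG1, which was lower in both. Each lies before an annotated start of its gene and is cut where an annotated exon of that gene is reached. All are written 5′ to 3′ on the gene's strand, with the sterol element and the NF-Y boxes (ATTGG on the other strand) in capitals. They lie at chr22:41832855-41833078 (SREBF2, plus strand), chr11:71448436-71448643 (DHCR7, minus strand), chr4:165327419-165327622 (MSMO1, plus strand), chr5:111512591-111512785 (STARD4, minus strand) and chr7:155297628-155297775 (INSIG1, plus strand).
SREBF2: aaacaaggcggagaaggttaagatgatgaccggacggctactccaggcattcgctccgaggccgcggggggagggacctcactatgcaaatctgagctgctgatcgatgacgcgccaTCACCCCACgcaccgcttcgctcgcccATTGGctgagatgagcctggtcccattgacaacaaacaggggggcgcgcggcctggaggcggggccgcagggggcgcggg
DHCR7: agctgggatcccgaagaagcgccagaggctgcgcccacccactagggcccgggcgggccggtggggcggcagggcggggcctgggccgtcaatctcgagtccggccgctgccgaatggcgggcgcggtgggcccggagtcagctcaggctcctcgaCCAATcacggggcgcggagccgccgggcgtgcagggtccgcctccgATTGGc
MSMO1: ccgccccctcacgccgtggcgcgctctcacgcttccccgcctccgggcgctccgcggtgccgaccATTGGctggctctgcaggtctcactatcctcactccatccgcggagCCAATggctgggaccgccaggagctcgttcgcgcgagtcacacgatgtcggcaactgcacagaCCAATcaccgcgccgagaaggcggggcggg
STARD4: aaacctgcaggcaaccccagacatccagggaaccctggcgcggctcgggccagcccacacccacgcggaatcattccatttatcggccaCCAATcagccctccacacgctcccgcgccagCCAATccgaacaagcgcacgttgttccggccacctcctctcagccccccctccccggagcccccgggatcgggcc
INSIG1: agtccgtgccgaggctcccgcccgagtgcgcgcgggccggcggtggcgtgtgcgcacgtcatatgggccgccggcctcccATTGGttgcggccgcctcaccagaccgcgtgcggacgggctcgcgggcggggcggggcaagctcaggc

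The SREBF2 stretch held the sterol element at position -133 and an NF-Y box at -106 from the annotated start. MSMO1 had 4 NF-Y boxes in its window, 3 of them in the stretch shown. The DHCR7 and STARD4 windows shown had 2 boxes each and the INSIG1 window 1. The DHCR7 window shown belongs to an inner start and lies within the span of the gene (chr11:71427287-71449043). The other DHCR7 window, at the outer start, held no NF-Y box. The matches are exact letters only, and binding was not measured. Variants of a motif were not counted, so a window without a match may still hold one.

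**Figure D1:**
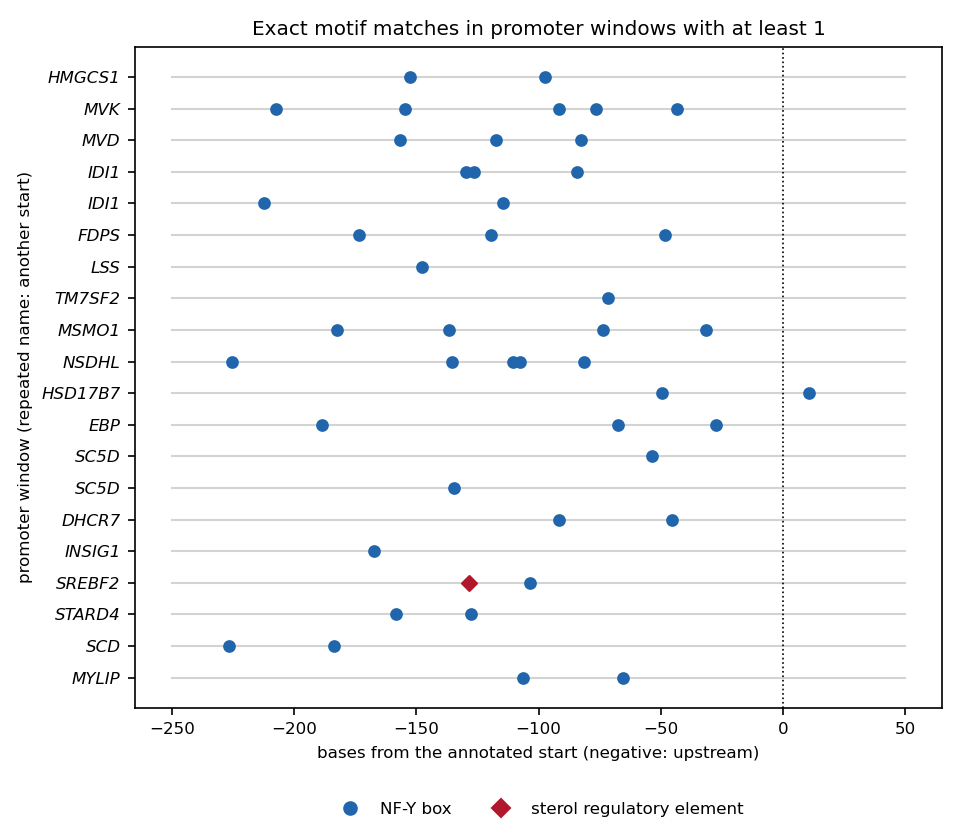
Exact matches of the NF-Y box (circles) and of the sterol regulatory element (diamond) along the promoter windows that hold at least 1 of them, 1 row per window; the x axis is the distance in bases from the annotated start. Of the 24 genes with a window 18 hold an NF-Y box, and the SREBF2 row alone has the diamond.

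The 28 genes spanned a wide range of levels and had no common order of the groups. Per kilobase of exon, the mean level in senescent cells with doxycycline ran between 0.587 CPM per kb for MYLIP and 20.8 CPM per kb for MSMO1. In proliferating cells without doxycycline it ran between 1.06 CPM per kb for TM7SF2 and 29.2 CPM per kb for FDPS. The highest of the 4 group means fell in senescent cells with doxycycline for 8 genes, in senescent cells without it for 6, in proliferating cells with doxycycline for 8 and in proliferating cells without it for 6. The ratio of the highest to the lowest group mean was 1.21 for SCAP and 6.34 for ABCA1, the ends of the range. Summed over the 28, the level was 977 and 1006 CPM in senescent cells with doxycycline, 890.1 and 929 CPM in senescent cells without it, 1093 and 1068 CPM in proliferating cells with doxycycline, and 942 and 929.9 CPM in proliferating cells without it. On this scale the sum thus moved less than single genes, some of which moved several fold in either direction. As a share of raw counts the 28 held 0.102% in both senescent libraries with doxycycline and 0.0803% and 0.0863% in those without it. In proliferating cells the share was 0.111% in both libraries with doxycycline and 0.0973% and 0.0964% in those without it. The 18 summed enzymes were lower with bleomycin alone (552.1 and 548.2 CPM, against 625.6 and 619.2 CPM). ACAT2 and FDPS both fell in that comparison. Without these 2 genes the sum was higher (452.2 and 448.9 CPM, against 411.5 and 398.5 CPM), a turn that follows from leaving out falling genes. With doxycycline the sum was lower in senescent cells also without them (467.5 and 469.1 CPM, against 503.4 and 479.9 CPM).

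**Figure D2:**
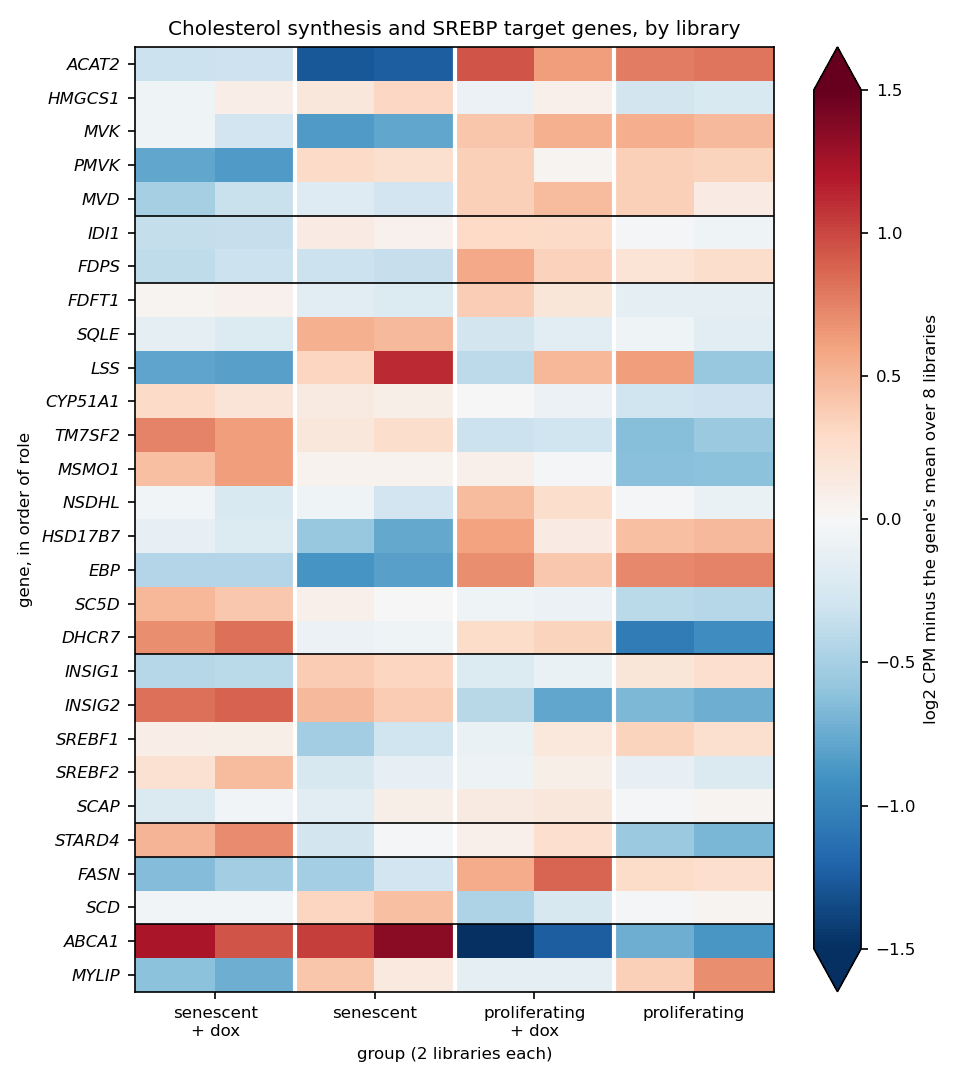
Level of each of the 28 genes in each of the 8 libraries, as log2 CPM minus the gene's mean over the libraries (red above, blue below); columns are libraries in 4 groups of 2, rows are genes in order of role, and black lines part the roles. ABCA1 and INSIG2 are red in the 4 senescent libraries, ACAT2 and EBP are blue there, and the 2 libraries of a group differ visibly for LSS.

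Doxycycline in proliferating cells raised 9 of the 28 genes and lowered 4, and the rises lay mostly among the enzymes from squalene on. DHCR7, STARD4 and MSMO1 rose 2.44-fold, 1.72-fold and 1.57-fold, and INSIG1, SCD, ABCA1 and MYLIP fell. The 13 genes called were 46.4% of the 28, against 23% of all genes tested, with 12.6% higher and 10.4% lower. The median log2 change was 0.15 over the 28 and 0.00 over all genes.

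DHCR7 (chr11:71427287-71449043), the reductase of the last step of one branch of the pathway, stood at 26.8 and 27.9 CPM in proliferating cells with doxycycline, against 10.8 and 11.7 CPM without it. Both doxycycline libraries lay above both others, by a log2 change of 1.29 (SE 0.09, edgeR adjusted p = 7.86e-08). MSMO1, the methylsterol monooxygenase, stood at 43.6 and 40.5 CPM with doxycycline, against 26.8 and 26.9 CPM without it (log2 change 0.65, SE 0.09, adjusted p = 5.96e-05). Rises of 1.20-fold to 1.34-fold were found for FDFT1 (squalene synthase), CYP51A1 (lanosterol demethylase), NSDHL (a sterol dehydrogenase) and SC5D (a sterol desaturase). Of the 11 enzymes from squalene on, 6 thus rose and none fell, with no call for SQLE, LSS, TM7SF2, HSD17B7 and EBP.

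Of the 7 enzymes before squalene, IDI1, the isopentenyl diphosphate isomerase, was the 1 that rose. It stood at 48.7 and 48.04 CPM with doxycycline, against 39.01 and 37.8 CPM without it (1.26-fold, adjusted p = 0.00609). FDPS, which makes farnesyl diphosphate, had 136 and 117 CPM with doxycycline, against 106 and 111 CPM without it, and missed the threshold (log2 change 0.22, 95% interval 0.05 to 0.40, adjusted p = 0.0626). HMGCS1, the HMG-CoA synthase, also missed it (log2 change 0.25, 95% interval 0.03 to 0.46, adjusted p = 0.0912). For ACAT2, MVK, PMVK and MVD the log2 changes lay between -0.14 and 0.17, without a call.

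STARD4, a soluble carrier that moves cholesterol between membranes, stood at 39.97 and 45.2 CPM with doxycycline, against 25.8 and 23.6 CPM without it (log2 change 0.79, SE 0.11, adjusted p = 5.7e-05). The groups did not overlap. INSIG1 (chr7:155297878-155310235), an SREBP target that holds SREBP back, moved the other way, with 11.4 and 12.3 CPM against 14.9 and 15.7 CPM (1.29-fold lower, adjusted p = 0.0158). INSIG2, SREBF1, SREBF2 and SCAP had log2 changes of 0.12, -0.25, 0.18 and 0.13 and were not called.

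The fatty acid enzymes parted. FASN, the fatty acid synthase, stood at 83.02 and 104 CPM with doxycycline, against 68.4 and 67.5 CPM without it (1.38-fold higher, adjusted p = 0.00448). SCD, the stearoyl-CoA desaturase, stood at 16.6 and 19.3 CPM, against 22.7 and 23.5 CPM (1.28-fold lower, adjusted p = 0.014). Both LXR targets were lower: ABCA1 had 7.999 and 11.2 CPM with doxycycline, against 15.9 and 14.3 CPM without it (log2 change -0.65, SE 0.17, adjusted p = 0.0202), and MYLIP had 2.59 and 2.57 CPM, against 3.64 and 4.61 CPM (log2 change -0.67, SE 0.20, adjusted p = 0.0248).

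This comparison rested on few libraries. Without the first or the second proliferating library without doxycycline 7 and 5 of the 28 genes passed, and without the first with doxycycline 8, while DHCR7, MSMO1, STARD4, FDFT1 and FASN passed under every alternative tried. IDI1, CYP51A1, NSDHL, SC5D, INSIG1, SCD, ABCA1 and MYLIP kept their direction but missed the threshold in at least 1 of these 3 fits, at adjusted p between 0.0554 and 0.292. The markers of proliferation fell in the same comparison, 13 of 15 of them past the threshold, and of the 14 fibroblast markers tested 10 fell and 1 rose. Their part in these results was not tested.

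Doxycycline in senescent cells raised 13 of the 28 genes and lowered 6. ACAT2, DHCR7 and STARD4 rose 1.91-fold, 1.79-fold and 1.69-fold, and PMVK, MYLIP and INSIG1 fell 2.11-fold, 1.94-fold and 1.70-fold. The 19 genes called were 67.9% of the 28, against 46.3% of all genes tested, with 22.6% higher and 23.8% lower. The median log2 change was 0.08 over the 28 and 0.00 over all genes, and 0.25 and 0.17 when libraries were scaled to total counts alone, so the 28 lay 0.09 above all genes on either scale. With total counts 69.3% of all called genes were higher, against 48.7% with TMM factors.

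The early enzymes split in both directions. ACAT2 (chr6:159762045-159779112), the cytosolic thiolase that joins acetyl-CoA units at the start of the pathway, stood at 50.5 and 51.01 CPM in senescent cells with doxycycline, against 26.3 and 26.8 CPM without it (log2 change 0.93, SE 0.10, adjusted p = 1.52e-06). PMVK (chr1:154924740-154942658), the phosphomevalonate kinase, stood at 12.2 and 11.7 CPM with doxycycline, against 25.6 and 24.7 CPM without it (log2 change -1.07, SE 0.11, adjusted p = 1.05e-06). In both genes the 2 groups lay far apart. Exons of SOD2, SOD2-OT1 and TCP1 lie opposite ACAT2 exons. Their overlaps, added gene by gene, come to 69.7% of the ACAT2 exon bases, and a base opposite more than 1 of them counts for each. Since the strand setting of the counting is not given in the sources used here, reads of those genes may be among the ACAT2 counts.

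MVK, the mevalonate kinase just before PMVK, stood at 8.07 and 6.88 CPM with doxycycline, against 4.65 and 4.89 CPM without it (1.57-fold higher, adjusted p = 0.000881). IDI1 fell to 30.8 and 31.1 CPM with doxycycline, against 42.9 and 41.4 CPM without it (1.36-fold lower, adjusted p = 0.000321). Consecutive steps of the pathway thus moved in opposite directions. HMGCS1, MVD and FDPS were not called, with log2 changes of -0.22, -0.18 and -0.02.

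Of the 11 enzymes from squalene on, 7 rose and SQLE fell. SQLE, the squalene epoxidase, a rate-limiting step, stood at 33.9 and 32.6 CPM with doxycycline, against 54.2 and 52.4 CPM without it (log2 change -0.68, SE 0.08, adjusted p = 9.31e-06). DHCR7 stood at 35.96 and 39.3 CPM, against 20.96 and 21.2 CPM (log2 change 0.84, SE 0.09, adjusted p = 2.25e-06). MSMO1 stood at 56.3 and 63.95 CPM, against 42.9 and 42.8 CPM (1.40-fold higher, adjusted p = 0.000267). None of these groups overlapped. FDFT1, TM7SF2, HSD17B7, EBP and SC5D rose 1.18-fold to 1.42-fold, while CYP51A1 and NSDHL were not called. FDFT1 and HSD17B7 missed the threshold without any 1 of the 6 libraries outside proliferating cells with doxycycline (adjusted p between 0.0505 and 0.173), and TM7SF2 missed it without the first senescent library of either group (adjusted p = 0.0765 and 0.0894).

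LSS, which closes squalene epoxide into lanosterol, could not be placed. It had 4.53 and 4.47 CPM in senescent cells with doxycycline and 9.80 and 17.05 CPM in senescent cells without it, 5.97 and 11.1 CPM in proliferating cells with doxycycline and 12.1 and 5.31 CPM in proliferating cells without it. The replicates of 3 groups differed 1.74-fold to 2.28-fold, more than those of any other of the 28 genes. The difference with doxycycline in senescent cells (log2 change -1.57, 95% interval -3.19 to 0.04) had an adjusted p of 0.1 in the robust fit and passed without robust estimation (0.00498), with only the 4 libraries compared (0.0021), with DESeq2 (0.0155) and with a block by the replicate numbers in the descriptions (1.46e-05).

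Of the 5 regulators 4 were called, 3 higher and 1 lower. SREBF2, the main SREBP gene for cholesterol synthesis, stood at 81.7 and 96.8 CPM in senescent cells with doxycycline, against 59.00 and 64.4 CPM without it (1.45-fold higher, adjusted p = 0.000275). SREBF1, whose product acts more on fatty acid genes, rose 1.42-fold (adjusted p = 0.00148). INSIG2 rose to 48.3 and 50.3 CPM, against 37.9 and 35.5 CPM (1.34-fold, adjusted p = 0.00342). INSIG1 fell to 9.85 and 10.01 CPM, against 17.2 and 16.5 CPM (log2 change -0.77, SE 0.10, adjusted p = 2.01e-05). SCAP was not called (log2 change -0.09).

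STARD4 stood at 53.9 and 61.8 CPM in senescent cells with doxycycline, against 31.3 and 37.1 CPM without it (log2 change 0.76, SE 0.10, adjusted p = 2.66e-05). SCD had 22.2 CPM in both doxycycline libraries, against 28.6 and 31.2 CPM (1.35-fold lower, adjusted p = 0.00187), and missed the threshold with total counts alone (adjusted p = 0.0516). FASN was not called (log2 change -0.19). MYLIP stood at 1.86 and 1.71 CPM, against 3.78 and 3.13 CPM (log2 change -0.95, SE 0.21, adjusted p = 0.00174), and ABCA1 was not called (log2 change -0.11, 95% interval -0.45 to 0.22). In the same comparison 9 of the 14 fibroblast markers tested fell and 2 rose, and 11 of the 15 markers of proliferation fell and 2 rose. Their part in these results was not tested.

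**Figure D3:**
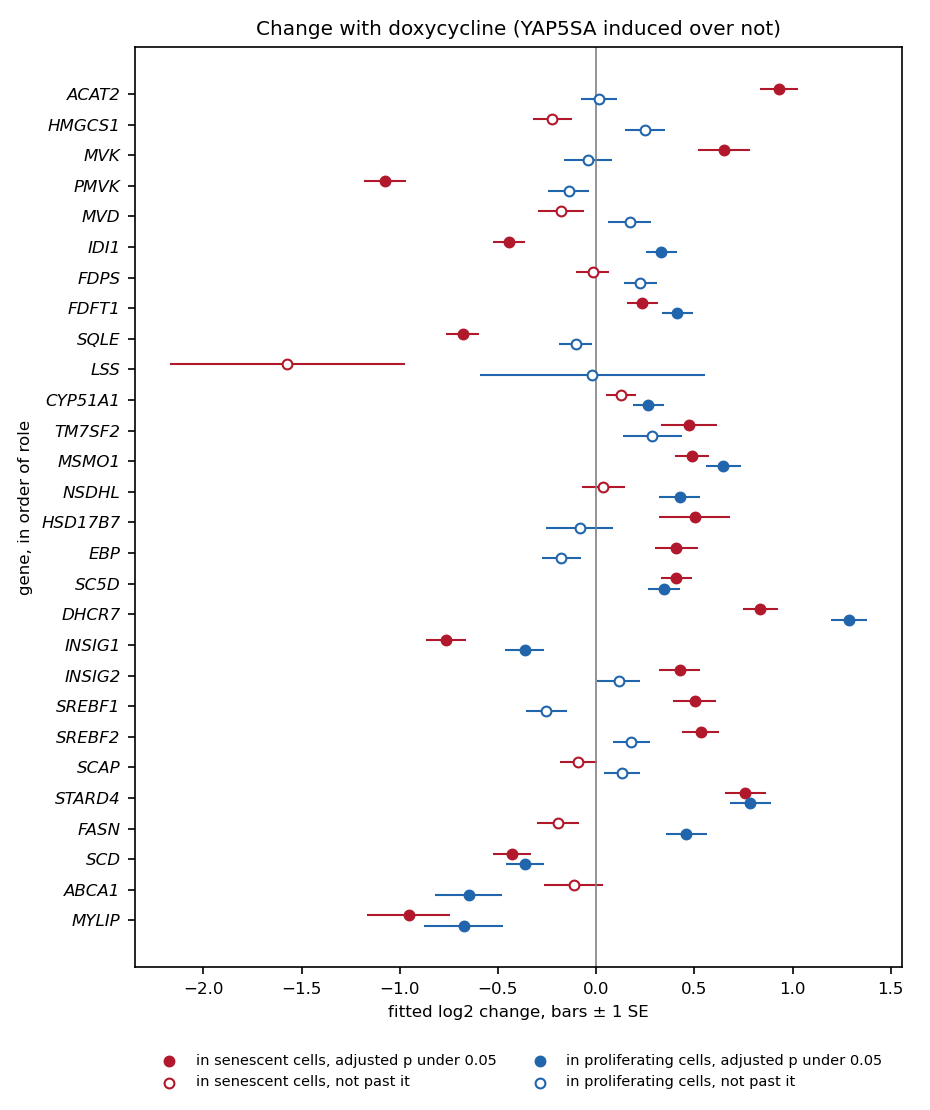
Fitted log2 change with doxycycline (x axis, points with bars of 1 SE) for each of the 28 genes in senescent cells (red) and in proliferating cells (blue), filled where edgeR's adjusted p was under 0.05. DHCR7, MSMO1 and STARD4 are filled and right of 0 in both states, INSIG1 and MYLIP are filled and left of 0 in both, and IDI1 is right of 0 in proliferating cells and left of it in senescent cells.

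The doxycycline comparisons in the 2 states use separate libraries but 1 fit over all 8 with a shared spread, so their calls are not independent. FDFT1, MSMO1, SC5D, DHCR7 and STARD4 rose in both and INSIG1, SCD and MYLIP fell in both, while HMGCS1, MVD, FDPS, LSS and SCAP were called in neither. IDI1 alone was called in opposite directions. The difference itself was tested as the doxycycline change in senescent cells minus that in proliferating cells, which passed for 10 of the 28 genes (35.7%, against 19.9% of all genes, 8.08% positive and 11.8% negative). It was positive for 4 and negative for 6, and for 7 and 4 with total counts alone, where the median moved to 0.01 over the 28 (-0.17 with TMM factors) and to 0.15 over all genes (-0.03), and 70.5% of all called differences were positive, against 40.7% with TMM factors. ACAT2 (0.92), SREBF1 (0.76), MVK (0.69) and EBP (0.59) had the positive log2 differences, and PMVK (-0.93), IDI1 (-0.78), FASN (-0.65), SQLE (-0.58), HMGCS1 (-0.47) and DHCR7 (-0.45) the negative ones. ACAT2, SREBF1, PMVK, IDI1 and SQLE passed under every alternative, whereas the other 5 missed the threshold without at least 1 library (adjusted p between 0.0516 and 0.147) and HMGCS1 and DHCR7 also with total counts alone (adjusted p = 0.18 and 0.17). As few as 6 passed without the second proliferating library without doxycycline.

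Bleomycin without doxycycline raised 11 of the 28 genes and lowered 8. ABCA1 and INSIG2 rose 4.02-fold and 2.20-fold, and ACAT2, EBP, MVK and HSD17B7 fell 4.10-fold, 2.997-fold, 2.52-fold and 2.19-fold. The 19 genes called were 67.9% of the 28, against 59.2% of all genes tested (29.8% higher and 29.4% lower), so the share was near that of all genes. The median log2 change was 0.06 over the 28 and 0.01 over all genes, and with total counts alone -0.12 over the 28 and -0.16 over all genes. With total counts the split among the called was 10 higher and 11 lower of the 28, and 37.1% of all called genes were higher, against 50.3% with TMM factors.

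ABCA1 (chr9:104781006-104928155), which exports cholesterol from the cell, stood at 54.1 and 67.4 CPM in senescent cells, against 15.9 and 14.3 CPM in proliferating cells (log2 change 2.01, SE 0.16, adjusted p = 1.29e-06). Both senescent libraries lay far above both proliferating ones. MYLIP, the other LXR target, was not called (log2 change -0.25, 95% interval -0.68 to 0.17). INSIG2 (chr2:118088471-118110997) stood at 37.9 and 35.5 CPM, against 17.1 and 16.4 CPM (log2 change 1.14, SE 0.11, adjusted p = 2.36e-07), while INSIG1 had 17.2 and 16.5 CPM, against 14.9 and 15.7 CPM, without a call (adjusted p = 0.23). SREBF1 fell 1.62-fold (adjusted p = 4.64e-05), and SREBF2 and SCAP had log2 changes of -0.01 and -0.05.

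ACAT2 stood at 26.3 and 26.8 CPM in senescent cells, against 108 and 110.1 CPM in proliferating cells (log2 change -2.04, SE 0.10, adjusted p = 7.39e-11). EBP, the sterol isomerase, stood at 10.7 and 11.3 CPM, against 32.7 and 33.3 CPM (log2 change -1.58, SE 0.11, adjusted p = 4.26e-09). In both genes every senescent library lay under every proliferating one. MVK, MVD, FDPS, HSD17B7 and FASN also fell, 1.40-fold to 2.52-fold. The enzymes that rose were HMGCS1, SQLE, CYP51A1, TM7SF2, MSMO1, SC5D and DHCR7, 1.34-fold to 1.88-fold.

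DHCR7 stood at 20.96 and 21.2 CPM in senescent cells, against 10.8 and 11.7 CPM in proliferating cells (log2 change 0.91, SE 0.09, adjusted p = 6.59e-07). SQLE stood at 54.2 and 52.4 CPM, against 35.8 and 33.5 CPM (1.54-fold higher, adjusted p = 1.11e-05). STARD4 had 31.3 and 37.1 CPM, against 25.8 and 23.6 CPM (1.38-fold higher, adjusted p = 0.0014). SCD rose 1.30-fold (adjusted p = 0.00326), which was not past the threshold with total counts alone (adjusted p = 0.113). All 15 markers of proliferation fell in this comparison, with a median log2 change of -3.22, and their part in these results was not tested.

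Bleomycin with doxycycline raised 10 of the 28 genes and lowered 14. The 24 genes called were 85.7% of the 28, against 55.5% of all genes tested, with 26.8% higher and 28.7% lower. The median log2 change was -0.24 over the 28 and -0.01 over all genes. Of the 7 enzymes before squalene 6 fell and none rose, with HMGCS1 not called (log2 change 0.02, 95% interval -0.19 to 0.23).

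FASN stood at 36.2 and 39.4 CPM in senescent cells with doxycycline, against 83.02 and 104 CPM in proliferating cells with doxycycline (log2 change -1.31, SE 0.11, adjusted p = 6.46e-08). ACAT2, PMVK, EBP, MVD and FDPS fell 2.17-fold, 2.03-fold, 1.998-fold, 1.78-fold and 1.76-fold. TM7SF2, a sterol reductase, stood at 9.14 and 8.41 CPM, against 4.35 and 4.42 CPM (log2 change 1.00, SE 0.15, adjusted p = 2.85e-05). ABCA1 stood at 61.4 and 50.7 CPM, against 7.999 and 11.2 CPM (log2 change 2.54, SE 0.17, adjusted p = 3.37e-07). INSIG2 stood at 48.3 and 50.3 CPM, against 20.4 and 15.9 CPM (log2 change 1.45, SE 0.11, adjusted p = 1.83e-08).

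MSMO1, SC5D, DHCR7, STARD4, CYP51A1, TM7SF2, INSIG2, ABCA1 and SCD were higher in senescent cells under both conditions. Each but ABCA1 and SCD had its highest group mean in senescent cells with doxycycline and its lowest in proliferating cells without it. ABCA1 and SCD had their highest mean in senescent cells without doxycycline and their lowest in proliferating cells with it. The falls of INSIG1 (1.19-fold, adjusted p = 0.0458) and MYLIP (1.45-fold, adjusted p = 0.0452) were not past the threshold in most alternatives. FDFT1, SCAP, HSD17B7, SCD, SREBF2 and CYP51A1 missed it without at least 1 of the libraries compared (adjusted p between 0.0542 and 0.233), and 17 to 24 genes passed when each library was left out in turn. All 15 markers of proliferation fell here too (median log2 change -3.53).

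**Figure D4:**
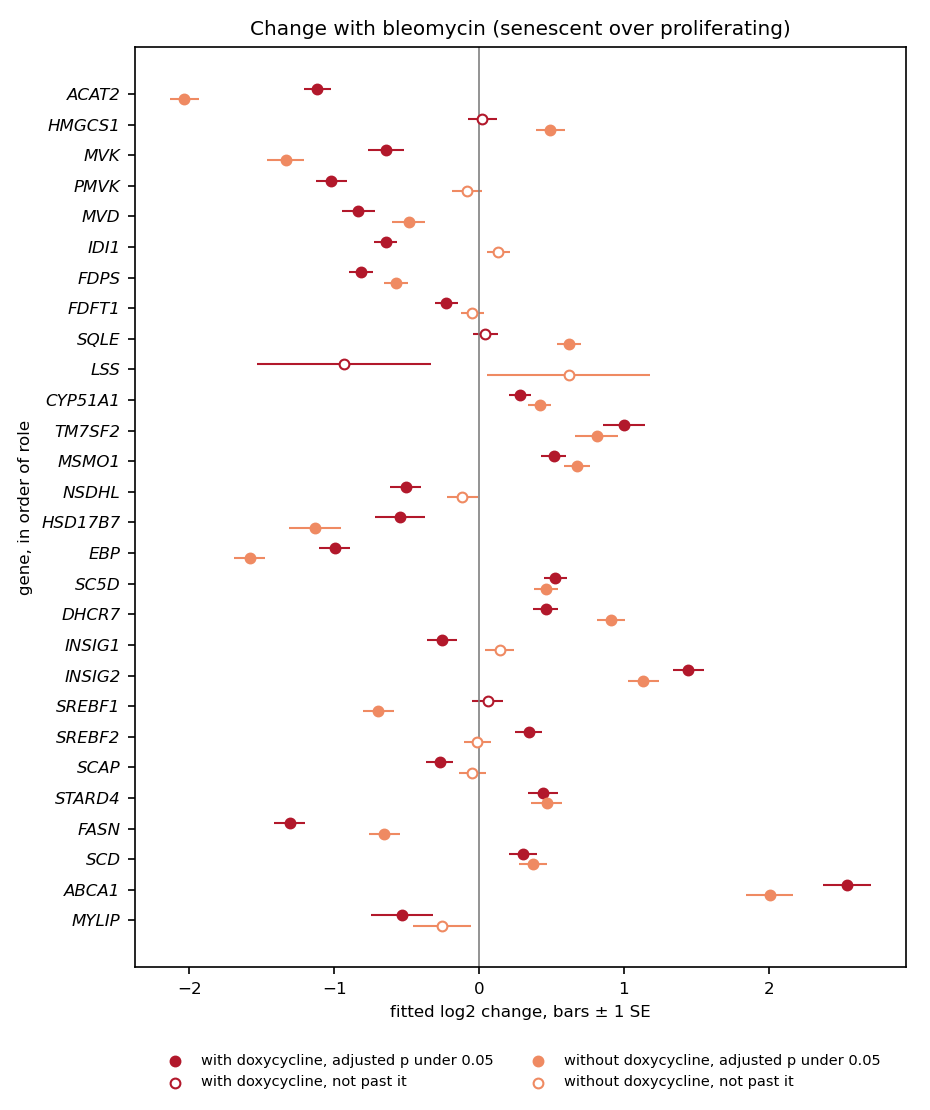
Fitted log2 change with bleomycin (x axis, points with bars of 1 SE) for each of the 28 genes, with doxycycline (dark red) and without it (orange), filled where edgeR's adjusted p was under 0.05. ABCA1 and INSIG2 lie furthest to the right in both, ACAT2 furthest to the left without doxycycline (-2.04) and FASN with it (-1.31).

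The levels in all 4 groups are set side by side here for single genes, since the comparisons share libraries and calls across them are not independent. ACAT2 averaged 50.7 ± 0.371 CPM in senescent cells with doxycycline, 26.6 ± 0.347 CPM in senescent cells without it, 110.1 ± 16.9 CPM in proliferating cells with doxycycline and 109 ± 1.59 CPM in proliferating cells without it (SD, n = 2 each). EBP averaged 14.6 ± 0.0642, 11.01 ± 0.412, 29.2 ± 4.19 and 33.00 ± 0.399 CPM in the same 4 groups. Both stayed well under the proliferating levels in senescent cells with doxycycline. MVK and HSD17B7 also had their lowest mean in senescent cells without doxycycline and the next lowest in those with it. SREBF1 averaged 23.1 ± 0.106 CPM in senescent cells with doxycycline, 16.3 ± 1.83 CPM in senescent cells without it, 22.1 ± 2.81 CPM in proliferating cells with doxycycline and 26.4 ± 1.16 CPM in proliferating cells without it, so its level with doxycycline did not differ between states beyond the spread (log2 change 0.06, 95% interval -0.17 to 0.29).

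SQLE, by contrast, averaged 33.2 ± 0.904 CPM in senescent cells with doxycycline, 53.3 ± 1.28 CPM in senescent cells without it, 32.2 ± 1.83 CPM in proliferating cells with doxycycline and 34.6 ± 1.62 CPM in proliferating cells without it, so the senescent cells without doxycycline stood apart from the other 3 groups. PMVK stood apart in another group, with 11.9 ± 0.377 CPM in senescent cells with doxycycline and means of 24.2 to 26.7 CPM in the other 3.

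**Figure D5:**
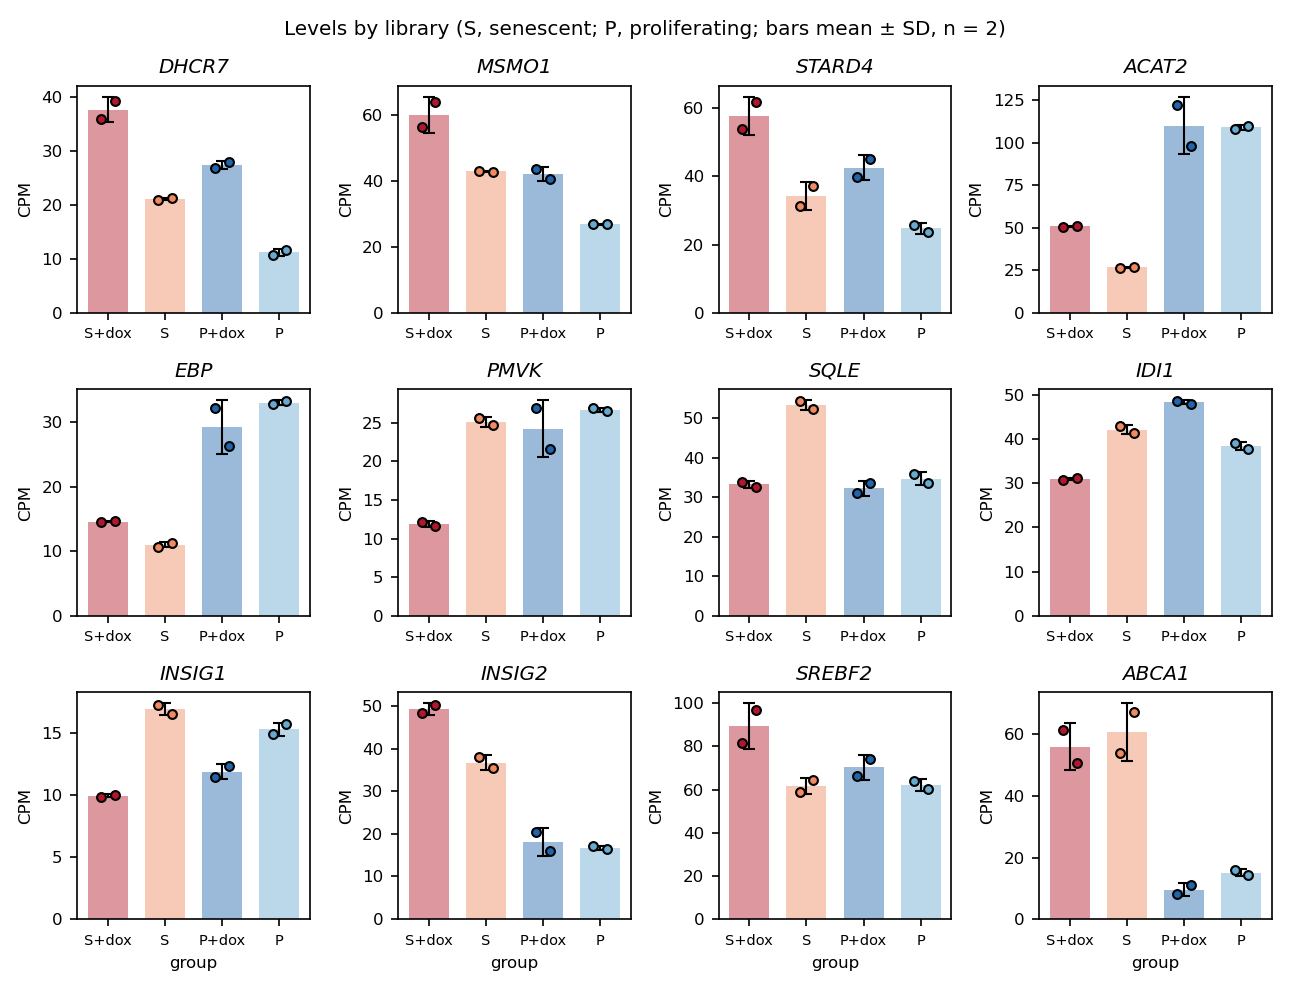
CPM of 12 of the genes in each library (points), with the group mean (bar) and SD (line, n = 2), in senescent (S) and proliferating (P) cells with and without doxycycline (dox). SQLE is high in S alone, PMVK is low in S+dox alone, and ACAT2 and EBP are low in both senescent groups. DHCR7, MSMO1, STARD4 and INSIG2 are highest in S+dox and lowest in P.

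The levels of the 2 INSIG genes lay furthest apart in senescent cells with doxycycline. The count of INSIG2 over that of INSIG1 within a library, which needs no scaling between libraries, was 4.91 and 5.02 in senescent cells with doxycycline, 2.2 and 2.15 in senescent cells without it, 1.79 and 1.29 in proliferating cells with doxycycline and 1.15 and 1.04 in proliferating cells without it. This ratio was chosen after the levels were seen and was given no test. DHCR7 over INSIG1, chosen in the same way, was 3.65 and 3.93, 1.22 and 1.28, 2.35 and 2.27, and 0.722 and 0.746 in the same order of groups, so that both doxycycline groups lay above both groups without it.

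Genes around the pathway were counted in lists that do not include the 28. Of 25 genes for the processing of SREBP, 9 rose and 10 fell with doxycycline in senescent cells (76% called, against 46.3% of all genes). MBTPS1, the Golgi protease that makes the first cut in SREBP, stood at 115 and 130.4 CPM with doxycycline, against 196 and 205 CPM without it (1.63-fold lower, adjusted p = 3.91e-06). MBTPS2, the protease of the following cut, stood at 38.3 and 39.2 CPM, against 59 and 58.95 CPM, and its doxycycline change in senescent cells minus that in proliferating cells was -0.76 on the log2 scale (adjusted p = 0.000217). NFYA, the DNA-contacting subunit of NF-Y, fell 1.53-fold in senescent cells (adjusted p = 2.64e-05). PRKAA2, a catalytic subunit of AMPK, rose in all 4 comparisons, 2.29-fold with doxycycline in senescent cells and 1.86-fold with it in proliferating cells. In proliferating cells 6 of the 25 rose and 2 fell with doxycycline (32% called, against 23% of all genes).

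Of 26 tested genes of fatty acid synthesis and modification, 8 rose and 12 fell with doxycycline in senescent cells (76.9% called, against 46.3% of all genes), and 6 rose and 3 fell in proliferating cells (34.6%, against 23%). ELOVL6, an elongase, stood at 22.6 and 24.6 CPM in senescent cells with doxycycline, against 42.6 CPM in both libraries without it (1.81-fold lower, adjusted p = 9.33e-07). FADS3, of the fatty acid desaturase family, stood at 98.5 and 97.3 CPM in proliferating cells with doxycycline, against 43.7 and 42.5 CPM without it (2.27-fold higher, adjusted p = 4.09e-08). SCD5, a second stearoyl-CoA desaturase, was 2.61-fold higher with bleomycin (adjusted p = 3.96e-10) and 1.62-fold higher with doxycycline in proliferating cells (adjusted p = 6.81e-06), where SCD fell.

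Of 14 tested LXR genes and targets beside ABCA1 and MYLIP, 7 rose and none fell with bleomycin alone (50% called, against 59.2% of all genes), and 3 rose and 8 fell with doxycycline in senescent cells (78.6% called, against 46.3%). NR1H3, which encodes an LXR receptor, stood at 4.99 and 4.92 CPM in senescent cells with doxycycline, against 9.99 and 9.02 CPM without it (1.92-fold lower, adjusted p = 2.53e-05).

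Of 29 genes of sterol traffic and storage, 9 rose and 11 fell with doxycycline in senescent cells (69% called, against 46.3% of all genes). VLDLR, a receptor of the lipoprotein receptor family, stood at 22.5 and 28.8 CPM in senescent cells with doxycycline, 10.5 and 8.72 CPM in senescent cells without it, 1.91 and 1.92 CPM in proliferating cells with doxycycline and 2.88 and 2.91 CPM in proliferating cells without it. It was 2.66-fold higher with doxycycline in senescent cells (adjusted p = 6.33e-07) and 13.4-fold higher with bleomycin under doxycycline (adjusted p = 2.73e-11). TMEM97, a sterol-responsive membrane protein, fell 2.41-fold with bleomycin alone (adjusted p = 9.6e-08) and rose 1.69-fold with doxycycline in senescent cells (adjusted p = 5.35e-05), comparisons that share the senescent libraries without doxycycline. Of 10 other genes of cholesterol synthesis and uptake 9 were tested, and 1 rose and 3 fell with doxycycline in senescent cells (44.4% called, near the 46.3% of all genes). Of 19 tested genes that use isoprenoids, 5 rose and 7 fell there (63.2% called, against 46.3% of all genes). COQ2, of coenzyme Q synthesis, fell 3.04-fold with bleomycin alone (adjusted p = 1.92e-08). Of 10 genes of oxysterol and bile acid synthesis only 3 were tested. Of these 3, 2 rose with doxycycline in senescent cells (66.7% called, against 46.3% of all genes), EBPL 1.73-fold and HSD3B7 1.43-fold.

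Some values carry a limit of counting. Exons of 2 loci with clone names overlap those of CYP51A1 on the same strand. These overlaps, added locus by locus, come to 82.1% of its exon bases, and a base in both loci counts for each. Antisense exons cover 18.6% of the exon bases of FDPS, 15% of those of HMGCS1 and 14.8% of those of IDI1. Annotated pseudogenes carry the names of FDPS (8), CYP51A1 (3), HSD17B7 (2) and SCD (1), and reads shared with them could be lost or split.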

How the data were processed

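The mRNA sequencing used acid phenol RNA and a strand-marking TruSeq kit on a NovaSeq instrument, per the labels' protocols. Trimmomatic 0.36, HISAT2 2.1.0, featureCounts 1.6.3 and the build hg38 are named in the submitters' processing notes; which annotation and strand setting were used in counting is not given in the sources used here. The values used are the raw counts per gene that the authors deposited, 33627708 to 39692162 per library, and a depth of this size leaves the spread between the 2 libraries of a group as the main limit of precision.

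From the counts, genes with enough reads in a group (filterByExpr) were kept, TMM factors were set, and edgeR 4.0.16 in R 4.3.3 fitted the 4 group means over all 8 libraries (glmQLFit with robust estimation, glmQLFTest, two-sided). P-values were adjusted by Benjamini-Hochberg over the 17155 genes tested, and 0.05 was the threshold. The code was tested on simulated data. Levels are TMM-scaled CPM; per-kb levels use exon lengths of GENCODE, gene and promoter positions are RefSeq GRCh38.p14. Alternatives were DESeq2 size factors, total counts alone, limma-voom (limma 3.58.1), DESeq2 1.42.0, no filter, a minimum mean log2 CPM of 1, the 4 libraries compared alone, no robust estimation, a block by either replicate number, and each library left out.

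The 28 genes and the other lists were chosen with earlier results of these data known. Of each other list the text could name at most 3 genes per comparison, those with the largest change past the threshold whose groups did not overlap (overlap was not asked of the difference between states); some genes that this rule allows are not reported here. A comparison in which a gene was not among those 3 is given only beside one in which it was.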

Additional observations from a re-analysis of the deposited data

Results flagged for a closer look

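The doxycycline change in senescent cells differed from that in proliferating cells for 10 of the 28 genes by the test of the difference itself (edgeR, adjusted p under 0.05). It is given here as the change in senescent cells minus that in proliferating cells, on the log2 scale. The difference was 0.92 for ACAT2 (adjusted p = 0.00023), 0.76 for SREBF1 (adjusted p = 0.00273), 0.69 for MVK (adjusted p = 0.0131) and 0.59 for EBP (adjusted p = 0.0116). It was -0.93 for PMVK (adjusted p = 0.000477), -0.78 for IDI1 (adjusted p = 0.000228), -0.65 for FASN (adjusted p = 0.00657), -0.58 for SQLE (adjusted p = 0.00327), -0.47 for HMGCS1 (adjusted p = 0.0288) and -0.45 for DHCR7 (adjusted p = 0.0232). DHCR7 rose in both states, and its difference is one of size.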

How the results depend on the processing

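Under the alternatives tried, 15 of the 28 genes kept their side of the threshold throughout for doxycycline in proliferating cells. The number was 22 for doxycycline in senescent cells, 22 for bleomycin without doxycycline, 19 for bleomycin with doxycycline and 15 for the difference between states. The direction had to be kept only where a gene was called, so a gene without a call may have changed sign. Leaving out each library in turn, 5 to 15, 16 to 19, 19 to 19, 17 to 24 and 6 to 13 of the 28 were called in these 5 comparisons, and 2011 to 4155, 5718 to 8599, 8263 to 10665, 7748 to 9770 and 1852 to 3903 of all genes. The residual correlation of same-numbered libraries was -0.0121 to 0.159 for the numbers in the titles. The 2 deviations of a group mirror each other, so this cannot show whether the numbers pair the libraries. In the descriptions the first proliferating library without doxycycline has a number that no other library has. A block by those numbers gives it a term of its own, so the second library alone sets the mean of that group. With the replicate block by the numbers in the descriptions, 7 of the 28 and 2353 of all genes were called for doxycycline in proliferating cells, against 13 and 3938 without it, and LSS moved to 0.93 (adjusted p = 0.0192), against -0.02 without a call. With that block LSS also passed in the other 4 comparisons, at -1.51 for doxycycline in senescent cells, 1.59 and -0.86 for bleomycin without and with doxycycline and -2.45 for the difference between states. The block by the titles' numbers changed no count by over 1.5 times. Apart from the term that the block by the descriptions' numbers gives to that 1 library, the cause of the LSS changes was not tested. With 2 libraries a group, a missed threshold does not show that levels were alike.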
